A study of Homo sapiens with 10 samples.

Results

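TGM2, MICAL2, TMCC2, VXN, ITPRIP, PLPP4, TSPAN14 and PPP1R3C are 8 of 19974 protein-coding genes whose surroundings were densely covered by peaks of the histone mark H3K4me1. The genes were chosen by the number of bases in H3K4me1 peaks close to an end of the gene that also carried RNA polymerase II. That choice was made from these same data, so the amount of H3K4me1 near the genes is given as a description and was not tested. CUT&Tag, where a transposase held by an antibody tags the DNA beside the target, was carried out in wild-type hTERT-RPE1 cells, a human retinal pigment epithelial line made immortal with telomerase. There was 1 cell line, with no treatment and no comparison of conditions. The antibodies recognised H3K4me1 in 4 libraries and RNA polymerase II phosphorylated on serine 5 in 6 libraries, the latter called Pol II from here on. The deposited data were 4 lists of peaks, list 1 and list 2 for each target, each merged by the authors from 2 libraries for H3K4me1 and from 3 for Pol II. Each list was counted as 1 replicate, so a target had 2 and no spread beyond the gap between them is known.

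H3K4me1 is a methyl group on lysine 4 of histone H3 and is best known from enhancers, the stretches of DNA that raise transcription of genes over a distance, and from the borders of promoters. Phosphorylation on serine 5 of the polymerase tail marks enzyme that has just started to transcribe, and such polymerase is found at promoters and also at active enhancers. Clusters of H3K4me1 around a gene are often seen where that gene is strongly used in a cell type, but the mark alone does not say which gene an element serves.

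The window of a gene is its model in the RefSeq annotation of GRCh38.p14 plus 100 kb on each side. Bases lying in peaks of both lists of a target were counted per kb of window, and this number is called density. Overlapping peaks of a target were joined, and a joined interval with at least 1 peak from each list is called a region. Pol II was taken to be at a gene end when each list had a peak no farther than 1 kb from the end base. By that measure 39.4% of protein-coding genes had Pol II at an end, as did all 8 genes here, which is a condition of their choice. H3K4me1 stood at an end of the same 8 genes, against 63.9% of protein-coding genes. H3K4me1 close to an end counts towards the choice, so nothing is read from this.

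The value behind the choice was the number of H3K4me1 bases, shared by both lists, no farther than 50 kb from an end bearing Pol II. It was 17963 for TGM2 and 17898 for MICAL2, the first and second of 7866 genes with Pol II at an end. TMCC2 had 16683, VXN 16623, ITPRIP 16001, PLPP4 15972, TSPAN14 15626 and PPP1R3C 15570. The median over the 7866 genes was 5059. PPP1R3C ranked 13 and was the lowest of the 8, and just below it NREP had 15529 at rank 14. The list does not cover the whole order: ANXA13, FKBP1A, DUSP5, SRGAP2 and PLAU also lie among the first 13 and are not on the list.

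Promoter sequence bears on the genes whose starts carried Pol II peaks of both lists. RefSeq promoters of GRCh38.p14, 300 bases from 250 before to 50 after a start, were listed for 6 of the genes, with 16 starts in all. Pol II of both lists touched 4 of these promoters and H3K4me1 touched 8, against 22.8% and 39.3% of 34961 listed promoters. The 16 promoters belong to genes chosen by both targets near an end, and several share a gene. Nothing is therefore read from this comparison of promoters. The 4 with Pol II are shown 5′ to 3′ on the strand of the gene. Capitals mark matches, on either strand, to the TATA motif TATAAA, the CCAAT box, the GC box motif GGGCGG, the AP-1 motif TGACTCA, the cAMP response motif TGACGTCA, the TEAD motif GGAATG or the E-box motif CACGTG. These 7 motifs do not contain one another. In order, the promoters lie at chr10:91633022-91633321 (minus strand), chr10:104338416-104338715 (minus strand), chr10:120456704-120457003 (plus strand) and chr11:12138140-12138439 (plus strand, a start inside the MICAL2 model).
PPP1R3C: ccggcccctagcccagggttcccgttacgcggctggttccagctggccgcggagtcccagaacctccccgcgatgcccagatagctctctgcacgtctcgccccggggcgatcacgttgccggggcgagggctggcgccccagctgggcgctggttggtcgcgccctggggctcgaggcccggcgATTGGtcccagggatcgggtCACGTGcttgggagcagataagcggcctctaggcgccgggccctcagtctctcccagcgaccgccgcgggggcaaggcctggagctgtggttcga
ITPRIP: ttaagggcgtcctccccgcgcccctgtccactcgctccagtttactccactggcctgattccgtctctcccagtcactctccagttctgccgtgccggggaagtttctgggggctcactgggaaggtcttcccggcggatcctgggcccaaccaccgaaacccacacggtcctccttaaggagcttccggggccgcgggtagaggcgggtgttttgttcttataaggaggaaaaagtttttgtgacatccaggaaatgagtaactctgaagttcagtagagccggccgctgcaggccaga
PLPP4: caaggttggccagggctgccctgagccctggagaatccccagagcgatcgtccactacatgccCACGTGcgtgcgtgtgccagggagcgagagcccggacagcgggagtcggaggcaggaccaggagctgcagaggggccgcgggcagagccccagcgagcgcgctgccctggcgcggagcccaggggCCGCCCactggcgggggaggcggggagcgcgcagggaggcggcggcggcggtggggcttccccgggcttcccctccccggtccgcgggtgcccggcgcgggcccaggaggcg
MICAL2: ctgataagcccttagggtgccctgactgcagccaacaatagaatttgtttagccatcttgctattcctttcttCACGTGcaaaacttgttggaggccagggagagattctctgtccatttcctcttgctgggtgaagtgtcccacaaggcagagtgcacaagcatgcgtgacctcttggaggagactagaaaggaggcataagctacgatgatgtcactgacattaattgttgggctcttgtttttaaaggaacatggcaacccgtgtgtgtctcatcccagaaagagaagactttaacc

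The 4 promoters differed in CpG count and in motifs. The PPP1R3C promoter held 32 CpG, a reversed CCAAT and a CACGTG, and the PLPP4 promoter held 33 CpG, a CACGTG and a reversed GGGCGG. The MICAL2 promoter had 4 CpG and a CACGTG, and the ITPRIP promoter had 17 CpG and none of the motifs. The median was 14 CpG over all listed promoters, 25 with Pol II of both lists and 8 without. CACGTG was thus in 3 of the 4, and it is in 7.26% of 35116 listed promoters, while CCAAT is in 34.6% and GGGCGG in 44.95%. TATAAA (11.5% of promoters), TGACTCA (4.95%), TGACGTCA (1.85%) and GGAATG (14.0%) were in none of the 4. The promoter at the outer start of TSPAN14 had 53 CpG and 6 GGGCGG, more CpG than 99.4% of listed promoters. Pol II of both lists began inside that gene, at chr10:80454920-80455403, and did not reach the promoter window. A match to a motif describes the letters only.

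All 8 windows were richer in H3K4me1 than the median protein-coding gene in each list, as the choice implies. Their median density was 114.5 bases per kb, against 40.3 over all protein-coding genes and 47.9 over genes with Pol II at an end, or 2.84 and 2.39 times as much. The 95th percentile of all protein-coding genes was 87.5, and 6 of the 8 genes lay above it. ITPRIP and TSPAN14 lay below it, at 85.1 and 73.4. Their rule values came from a compact part of the window, as described for each gene further on.

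Pol II over the whole window was not used for the choice, beyond its presence at an end, but it was measured in the same cells and goes along with H3K4me1 across the genome. Its median density near the 8 genes was 20.6 bases per kb, against 7.01 over all protein-coding genes and 10.9 over genes with Pol II at an end. The ratio was 2.94 to the former and 1.89 to the latter. All 8 genes exceeded the median of all protein-coding genes and 7 exceeded that of genes with Pol II, the exception being TSPAN14. Only 3 of the genes, TGM2, MICAL2 and ITPRIP, lay above the 95th percentile of 27.3. Relative to the median of all protein-coding genes, the single genes ranged from 1.82 to 3.39 times for H3K4me1 and from 1.15 to 4.28 times for Pol II. The genes were chosen for high H3K4me1 and not for Pol II density, so nothing is read from the wider range of Pol II.

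**Figure D1:**
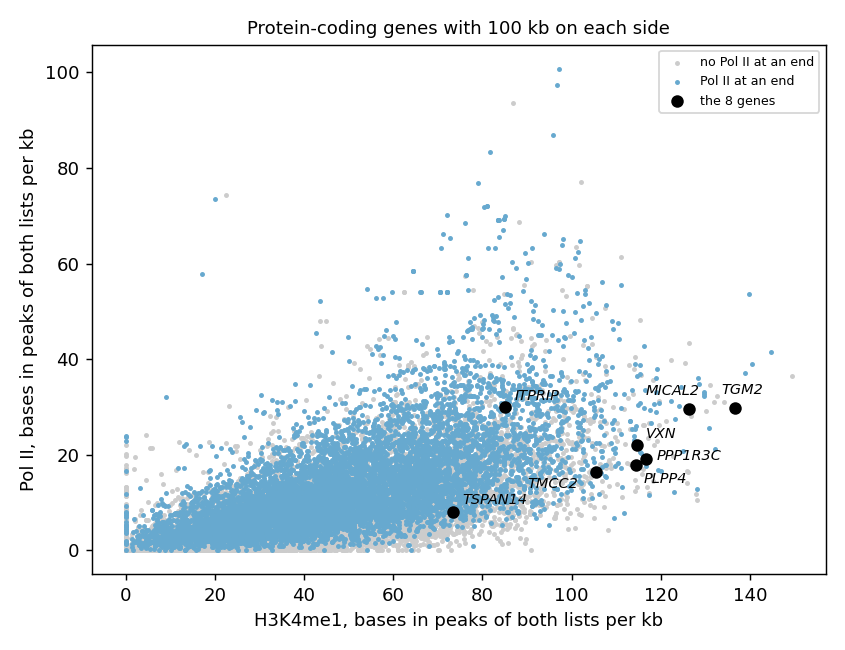
H3K4me1 density (x axis, bases in peaks of both lists per kb of window) against Pol II density (y axis, same unit) for 19974 protein-coding genes, coloured by Pol II at an end, with the 8 genes in black. The 8 genes, chosen for high H3K4me1, lie between 73.4 and 137 for H3K4me1 and between 8.06 and 30.02 for Pol II, inside the range of other genes.

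The 2 lists of a target gave the same picture with a shift between them. For H3K4me1 the density in list 1 was higher than in list 2 in all 8 windows, and for Pol II list 2 was higher in all 8. The ranges were 94.8 to 168 bases per kb in H3K4me1 list 1, 80.0 to 152 in list 2, 12.9 to 39.8 in Pol II list 1 and 21.4 to 49.4 in list 2. TSPAN14 was the lowest gene in each of the 4 lists. TGM2 was the highest in both H3K4me1 lists, and ITPRIP was the highest in both Pol II lists. Among all protein-coding genes, each of the 8 ranked lower in H3K4me1 list 1 than in list 2, such as MICAL2 at 136 and 26. In bases of both lists ITPRIP had 30.02 Pol II bases per kb, TGM2 29.76 and MICAL2 29.47, differences smaller than those between the lists of each gene.

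**Figure D2:**
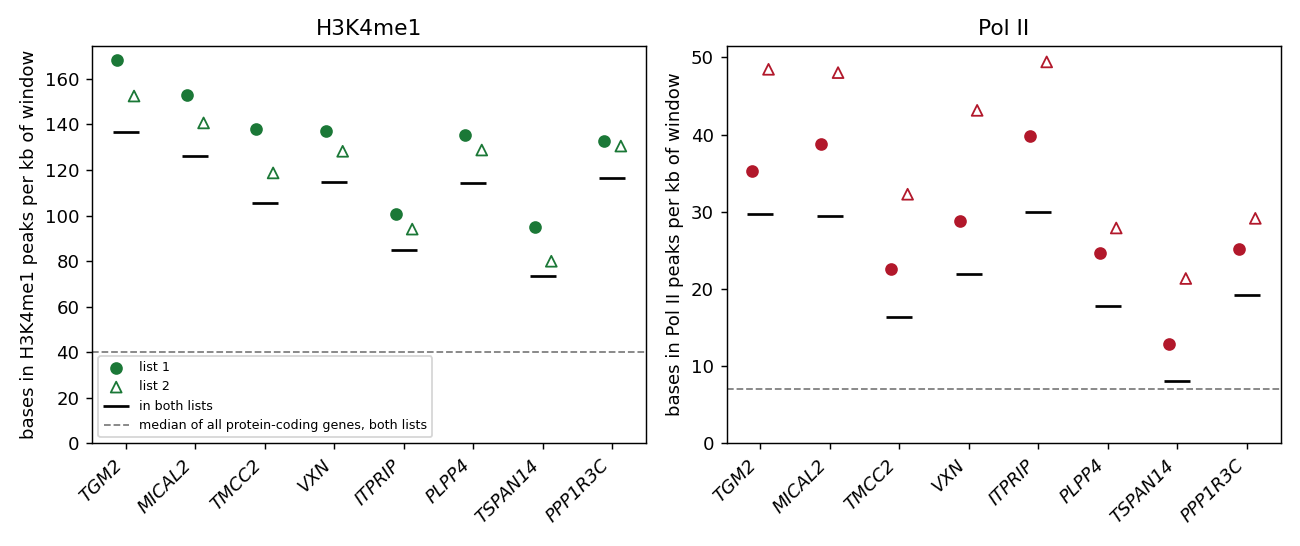
Density of H3K4me1 (left) and Pol II (right) in the window of each gene, in bases in peaks per kb, for list 1 (filled circles), list 2 (open triangles) and bases in both (bars), with the median of all protein-coding genes dashed. Every gene lies above the dashed line in both panels, and TSPAN14 lies nearest to it.

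TGM2 encodes transglutaminase 2, which crosslinks proteins in a calcium-dependent way, also in the extracellular matrix (chromosome 20, 38127385 to 38168475). Its H3K4me1 density was 168 in list 1, 152 in list 2 and 137 in both, ranks 38, 6 and 6 of 19974. Its Pol II density was 35.2, 48.5 and 29.8. The 32 H3K4me1 regions stood throughout the window and 17 of them held Pol II, the highest share of the 8 genes at 53.1%. The model itself had 165 H3K4me1 and 50.1 Pol II bases per kb, the left flank 142.5 and 39.2, and the right flank 119 and 11.98. TGM2 is 1 of 2 genes here with Pol II at both ends. This was seen at 868 protein-coding genes, or 4.35% of all 19974. Those 868 all lie among the 7866 that met the Pol II condition, from which the 8 were chosen. Their share is therefore higher there, and nothing is read from the 4.35%. The fold enrichment given by the authors was 3.08 and 3.37 at the left end and 4.63 and 4.77 at the right end, in lists 1 and 2. The strongest Pol II region of the window, by the mean fold of the 2 lists as for all windows here, was not at TGM2. It lay at chr20:38043872-38044440 inside RPRD1B, 82.9 kb to the left, with a fold of 13.3 and 12.9, on the strongest H3K4me1 region (10.2 and 12.9). The widest H3K4me1 region, 2935 bp, lay 16 kb from TGM2 at chr20:38108450-38111384 and held Pol II at 10.1 and 7.39.

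MICAL2 encodes a flavoenzyme that oxidises actin and so takes filaments apart (chromosome 11, 12110590 to 12362140). It is the longest of the 8 genes, 251551 bp on the plus strand. H3K4me1 density was 153 in list 1, 141 in list 2 and 126 in both, with 54 regions, and Pol II density was 38.7, 48.0 and 29.5, with 26 regions. All 26 Pol II regions overlapped H3K4me1. The flanks were as dense as the gene, with 146 H3K4me1 bases per kb on the left, 113 in the model and 139 on the right. Pol II was at the outer start with a fold of 6.61 and 5.18 and stronger at an inner start. There a Pol II region at chr11:12138294-12139845 had a fold of 10.5 and 7.19 and reached the promoter printed above. Another inner Pol II region, at chr11:12163296-12164633 with 6.03 and 5.01, covered the microRNA gene MIR6124. Towards its finish the model was sparse, and no H3K4me1 region lay in the 41921 bp from 12288859 to 12330779. The right flank overlaps PARVA, which encodes the focal adhesion protein alpha-parvin. PARVA had 8 Pol II regions in the window but did not meet the measure of Pol II at an end, and among them chr11:12450101-12450777 was the strongest of the window (12.1 and 9.48).

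TMCC2 encodes a coiled-coil protein of the endoplasmic reticulum membrane (chromosome 1, 205227946 to 205273343, plus strand). H3K4me1 density was 138 in list 1, 119 in list 2 and 105 in both, and Pol II density was 22.6, 32.3 and 16.4. The model held 132 H3K4me1 bases per kb and not 1 base where the Pol II lists overlapped (0 bases per kb). TMCC2 met the condition of Pol II at an end only through its finish, where the peaks of the 2 lists did not overlap and had summits 929 and 321 bp from the end base. A Pol II region did lie outside the start, at chr1:205226506-205227281 with a fold of 4.19 and 3.91. Its near edge was 0.664 kb from the start, but only its list 1 peak came within 1 kb. Of the 9 Pol II regions in the window, 5 touched DSTYK, a protein kinase gene, with up to 12.1 and 8.70 at chr1:205144418-205145438. A further 2 touched NUAK2, a kinase gene of the AMPK family, with 5.48 and 3.47 at its end.

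VXN encodes vexin, a protein known from the differentiation of neurons (chromosome 8, 66493566 to 66518524). H3K4me1 density was 137 in list 1, 128 in list 2 and 115 in both, and Pol II density was 28.8, 43.1 and 21.99. Its H3K4me1 regions were the most tightly spaced of the 8 genes, with a median gap of 3583 bp. A single Pol II region lay in the model, at chr8:66517348-66517911, 613 bp from the right end, with a fold of 10.3 and 6.87, the strongest of the window by mean fold. The lncRNA gene LOC124901955 (66506185 to 66542165) runs across the right end of VXN and also covers this region. The region therefore cannot be assigned to either gene. In list 2 alone a region at chr8:66463382-66464078 was higher, with 7.96. The left end had no peak of either target in either list within 1 kb. From the right end outwards, 8 more Pol II regions followed in the right flank, the last of them at the end of MYBL1, a MYB family transcription factor gene (7.71 and 6.16).

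ITPRIP encodes a membrane protein that modulates calcium release through the inositol trisphosphate receptor (chromosome 10, 104309700 to 104338465, minus strand). H3K4me1 density was 101 in list 1, 94.1 in list 2 and 85.1 in both, and Pol II density was 39.8, 49.4 and 30.02. The model stood out within its window. It held 215 H3K4me1 and 111 Pol II bases per kb, and the right flank, inside CFAP58, held 41.9 and 2.87. A stretch of 73155 bp of CFAP58 had no H3K4me1 region, the longest such gap in any of the 8 windows. ITPRIP starts 55 bp from CFAP58, a gene of cilia and flagella that runs the other way, so the Pol II peak at its start (2.81 and 2.83) cannot be assigned to either gene. At that start H3K4me1 was called in list 2 only, with a fold of 2.10. The widest H3K4me1 region of the window, 3069 bp, lay within the gene at chr10:104327746-104330814, and a Pol II region of 1862 bp (3.71 and 2.52) overlapped it. Pol II folds at the gene reached 4.69 and 3.79, and the strongest region of the window stood at CFAP43, also a gene of cilia and flagella, 77.0 kb away, with 13.6 and 10.1.

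PLPP4 encodes a phospholipid phosphatase (chromosome 10, 120456954 to 120592065, plus strand). H3K4me1 density was 135 in list 1, 129 in list 2 and 114 in both, with 44 regions, and Pol II density was 24.7, 27.9 and 17.8. Its window held no other protein-coding gene, only 2 lncRNA genes in the right flank. H3K4me1 was dense on the left (143 bases per kb) and in the model (118) and thinner on the right (81.2), where Pol II was at 0. The peak at the start was weak, with a Pol II fold of 2.41 and 2.25. Stronger Pol II lay at chr10:120469276-120470111 inside the gene (8.54 and 9.64) and at chr10:120415754-120416394, 40.6 kb before the start, where no gene is annotated (10.5 and 8.08).

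TSPAN14 encodes a tetraspanin of the group that escorts the protease ADAM10 to the cell surface (chromosome 10, 80454310 to 80522631, plus strand). H3K4me1 density was 94.8 in list 1, 80.0 in list 2 and 73.4 in both, and Pol II density was 12.9, 21.4 and 8.06. Only 55.0% of protein-coding genes had a lower Pol II density. The model, with 163 H3K4me1 and 25.9 Pol II bases per kb, stood out from its right flank, with 13.2 and 0. It also held the widest H3K4me1 region of all 8 windows, 3298 bp at chr10:80471000-80474297, with Pol II at 7.39 and 5.83. In the left flank the 2 Pol II regions lay at the end of or within PRXL2A, a peroxiredoxin-like gene.

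PPP1R3C encodes a subunit that targets protein phosphatase 1 to glycogen (chromosome 10, 91628442 to 91633071, minus strand). H3K4me1 density was 133 in list 1, 131 in list 2 and 117 in both, and Pol II density was 25.2, 29.2 and 19.2. At 4630 bp it is the shortest of the 8 genes, and nearly all of the signal lay outside it. The model held 224 bases of each target, all at its start, where Pol II had a fold of 5.56 and 3.67 and H3K4me1 6.58 and 5.15. The left flank, beyond the finish, had 144 H3K4me1 and 30.9 Pol II bases per kb, and the right flank, before the start, 92.8 and 6.08. Of the 8 Pol II regions, 6 lay in that left flank, 4 of them inside the lncRNA gene HECTD2-AS1. The strongest H3K4me1 region, at chr10:91651610-91653311 with a fold of 10.98 and 11.01, lay 18.5 kb before the start and held no Pol II region.

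**Figure D3:**
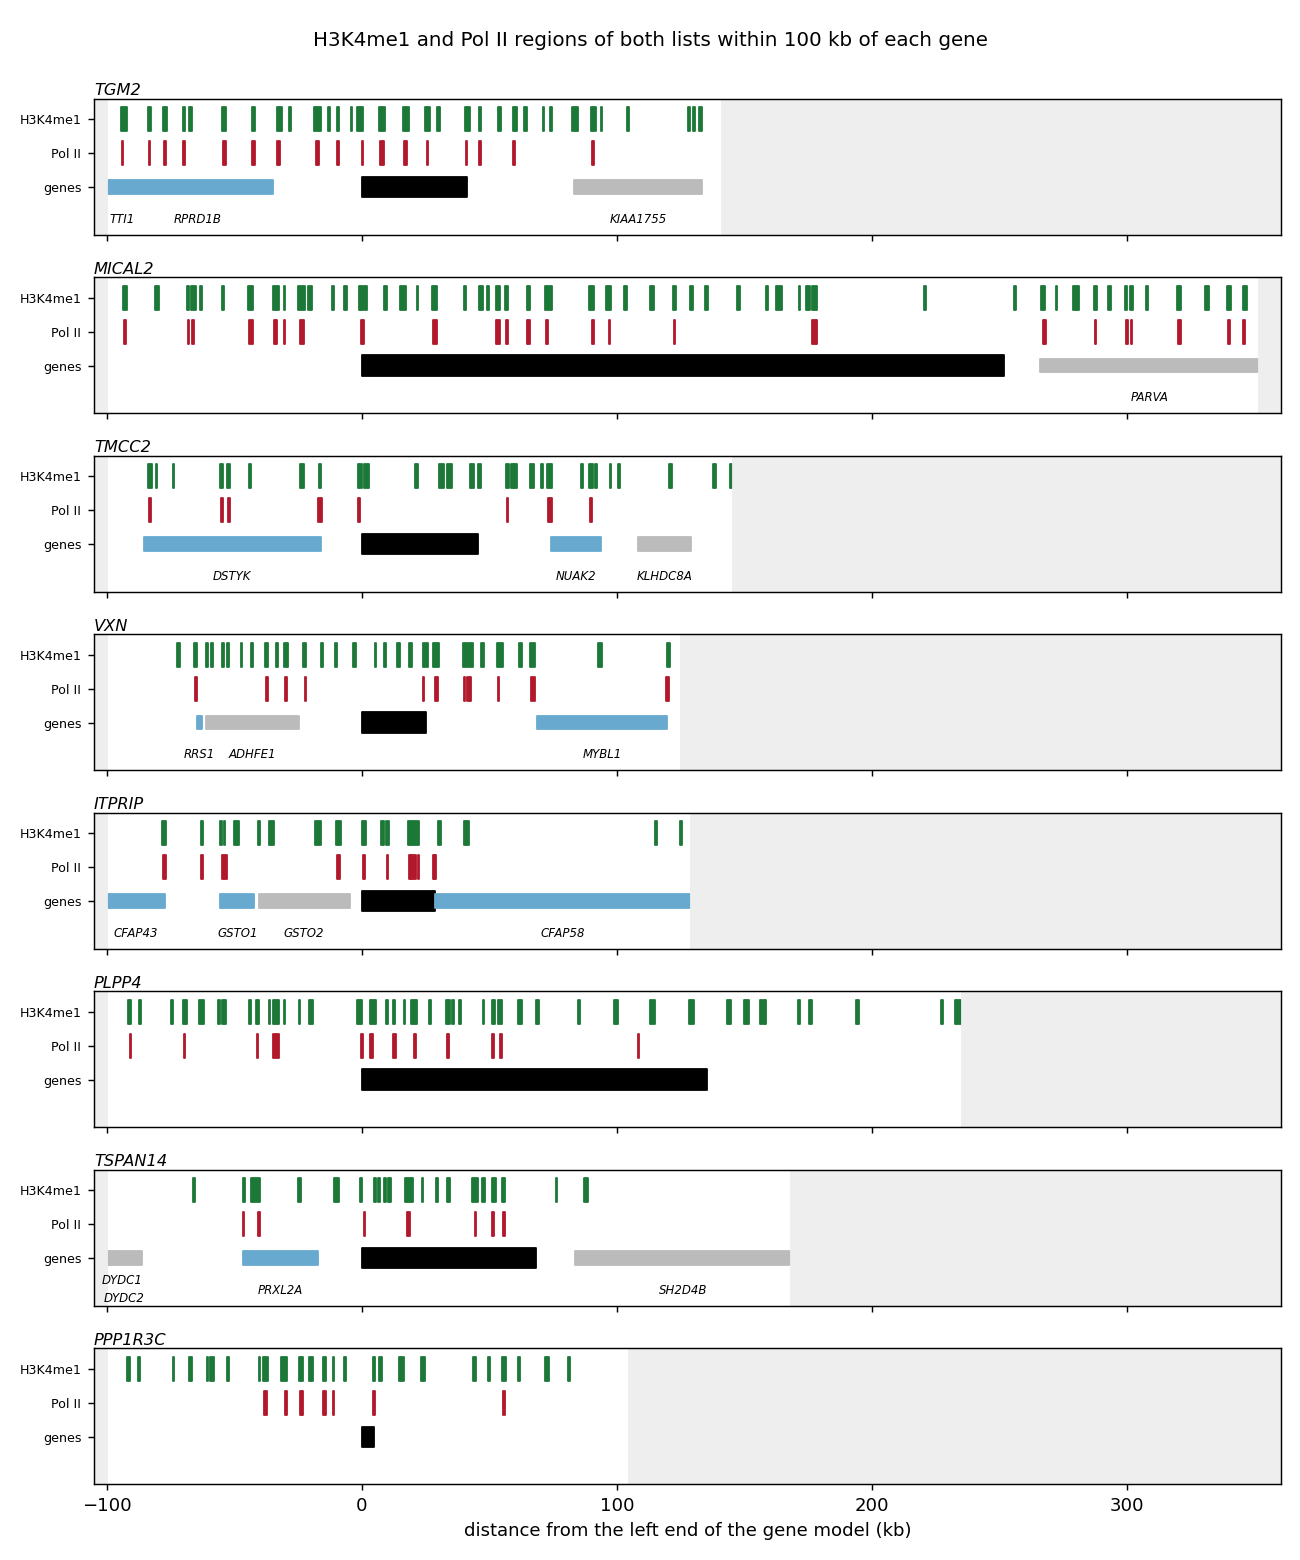
H3K4me1 (green) and Pol II (red) regions of both lists along each window, with the gene in black, protein-coding neighbours with Pol II at an end in blue and without in grey; the x axis is distance from the left end of the gene model in kb, regions are drawn at least 0.6 kb wide, and shaded areas lie outside the window. Regions run through both flanks of TGM2 and MICAL2, and the right flanks of PLPP4 and TSPAN14 hold no Pol II region.

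The 8 windows together held 256 H3K4me1 and 104 Pol II regions. Pol II overlapped 95 of the 256 H3K4me1 regions, or 37.1% (95% Wilson interval 31.4 to 43.2), against 25.8% of 104482 regions genome-wide. The share was 53.1% at TGM2, 47.4% at ITPRIP, 44.4% at MICAL2 and 40.6% at VXN, and from 25% to 30% at PLPP4, TMCC2, PPP1R3C and TSPAN14. The last 4 genes lie near the genome-wide share. The median of the 8 shares, 35.3%, was also close to the median of 36.8% over windows of genes with Pol II at an end, so a high share is not a trait of these genes. In the other direction, 99 of 104 Pol II regions (95.2%, 89.2 to 97.9) overlapped H3K4me1, against 87.7% genome-wide. The 5 that did not were 2 at the start of ITPRIP, 1 each inside PLPP4 and TSPAN14, and 1 in DSTYK. Neighbouring regions are not independent, and the intervals cover the counting of regions only.

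H3K4me1 regions with Pol II were wider than those without. An overlap of 1 bp was enough, so a wider region has more room to be counted with Pol II. This was not allowed for in the widths. Near the 8 genes the median width was 1466 bp with Pol II and 882 bp without, and genome-wide it was 1248 and 889 bp. The order held in each window except that of ITPRIP, where the medians were 1009 and 1167 bp. The fold of H3K4me1 in regions near the 8 genes was also higher with Pol II, with a median of 5.37 and 5.43 in lists 1 and 2 against 4.07 and 4.05.

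H3K4me1 peaks in the windows were wider than in the lists as a whole but not higher in fold. Peak width had a median of 967 bp (list 1) and 818 bp (list 2), compared with 764 and 699 bp over each list. The median fold was 4.31 and 4.14, below the 4.78 and 4.89 of the whole lists, while the median −log10 q was higher, 22.1 and 17.9 against 13.1 and 11.4. Recurrence was also higher near the genes: 92.8% and 93.0% of H3K4me1 peaks overlapped a peak of the other list, against 86.2% and 87.2% overall. For Pol II the shares were 72.7% and 76.5% near the genes and 66.1% and 65.8% overall. Width and recurrence go with the choice, which counted bases found in both lists.

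H3K4me1 regions were closely spaced. Spacing follows from density, on which the genes were chosen, so these gaps are a description only. Between neighbouring H3K4me1 regions of a window there were 248 gaps with a median of 5054 bp, against 8712 bp genome-wide. The median of the 8 medians was 4972 bp, against 8499 bp over windows of all protein-coding genes. Gaps under 2 kb made up 20.2%, against 14.5% genome-wide, and gaps over 20 kb only 2.82% (7 gaps), against 25.8%. A window cuts off long gaps at its edges, so the last comparison partly follows from the way gaps were counted. Besides ITPRIP and MICAL2, the longest gaps were 32055 bp at PLPP4, 25284 bp inside MYBL1 near VXN and 23111 bp at KIAA1755 near TGM2. They were 19815 bp at TSPAN14, 19492 bp in DSTYK near TMCC2 and 18597 bp at PPP1R3C.

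The density fell off beyond about 50 kb. In bands outside the gene models, the median over the 8 genes stayed between 120 and 145 H3K4me1 bases per kb in each 10 kb band up to 50 kb. It was 83.6 from 50 to 75 kb, 46.4 from 75 to 100 kb and 37.2 from 100 to 150 kb, where the median over all protein-coding genes was 36.3. The mean from 100 to 150 kb was 45.3 over the 8 genes and 39.8 over all protein-coding genes. The median over the 8 genes was 25.5 from 150 to 200 kb and 53.4 from 200 to 300 kb. Over all protein-coding genes the medians were 35.7 and 36.7. The first 50 kb follow from the choice. Beyond 100 kb, MICAL2 remained high, at 106 from 100 to 150 kb and 89.9 from 150 to 200 kb, and TSPAN14 was low, at 6.16 and 0. The Pol II median was 15.0 within 10 kb, below the median of 20 over the 7866 genes with Pol II, and 35.6 from 10 to 20 kb, where their median was 0. The means from 10 to 20 kb were 29.0 over the 8 genes and 12.7 over the 7866. ITPRIP, PLPP4 and TSPAN14 were at 0 in that band. The Pol II median of the 8 genes was 5.97 from 100 to 150 kb, against a median of 5.2 over all protein-coding genes.

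**Figure D4:**
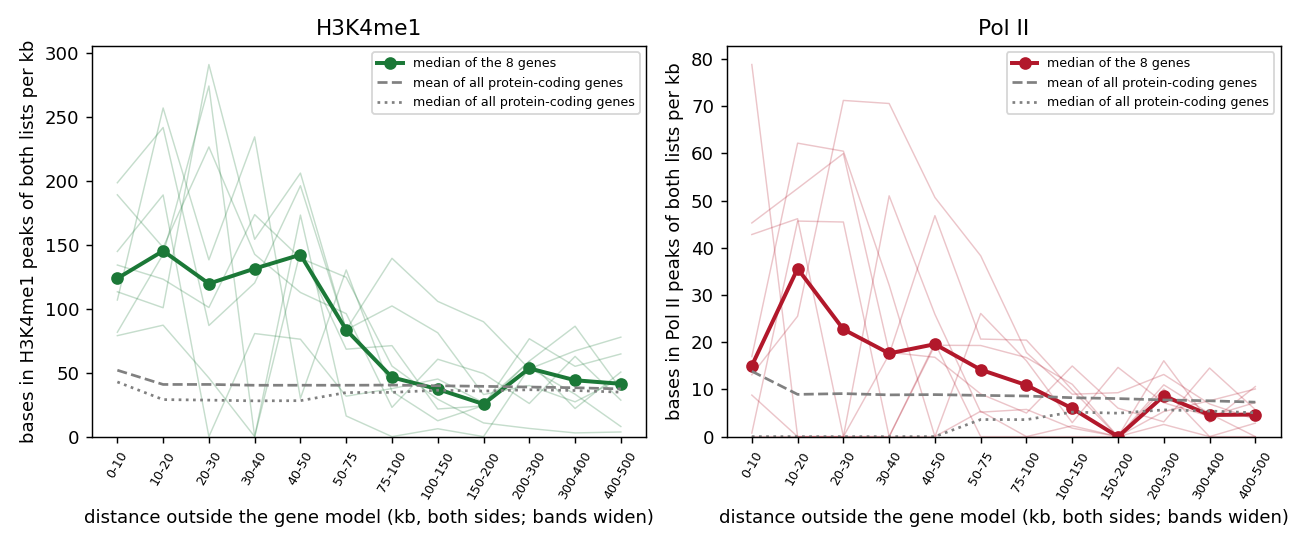
Density of H3K4me1 (left) and Pol II (right) in bases in peaks of both lists per kb against distance outside the gene model in kb, in bands that widen. Thin lines are single genes, the thick line is their median, and the grey lines are the mean and median of all protein-coding genes. The H3K4me1 median lies between 120 and 145 up to 50 kb and is at 37.2 from 100 to 150 kb.

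The parts of the windows that the choice did not use lie more than 50 kb from every end with Pol II. There the median H3K4me1 density was 76.3 bases per kb, against 44.2 over the same parts at 7866 genes with Pol II at an end, and 6 of the 8 genes were above 44.2. MICAL2 had 111 (above 98.2% of those genes), PLPP4 95.1 (94.8%), TGM2 93.0 (94.0%), PPP1R3C 79.3 (86.9%), VXN 73.4 (82.9%) and TMCC2 63.1 (73.3%). ITPRIP had 34.6 and TSPAN14 24.2, above 36.4% and 22.2%. Outside the selected stretch ITPRIP and TSPAN14 thus lay below the median of genes with Pol II, while MICAL2, PLPP4 and TGM2 remained far above it. For Pol II in these parts the median was 14.0 against 7.99, and 5 of the 8 genes were above the latter, with PLPP4 (7.20), TSPAN14 (4.38) and PPP1R3C (2.57) below it. Adjacent stretches are not independent of the selected ones, so these values are a description.

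There were 18 protein-coding neighbours in the windows. Pol II stood at an end of 10 (55.6%), against 39.4% of all protein-coding genes. The share among neighbours of other genes with Pol II was not counted. TTI1, of a complex that stabilises large kinases, and RPRD1B, whose product binds the polymerase tail, share 1 peak near TGM2 (5.56 and 4.01). DSTYK (6.71 and 6.32) and NUAK2 lie near TMCC2. RRS1, of ribosome assembly (4.78 and 3.96), and MYBL1 lie near VXN. The ITPRIP window has CFAP43, the glutathione transferase gene GSTO1 (4.29 and 5.91) and CFAP58, and the TSPAN14 window has PRXL2A (3.68 and 4.10). CFAP58 counts through the peak at the start of ITPRIP itself, so the 10 genes do not stand for 10 separate peaks. The 8 without were KIAA1755, PARVA, KLHDC8A, ADHFE1, GSTO2, DYDC1, DYDC2 and SH2D4B. H3K4me1 was at an end of 13 of the 18, against 63.9% of all protein-coding genes. PLPP4 and PPP1R3C had no protein-coding neighbour, and the median over the 8 genes was 3, against 4 over all protein-coding genes. Which gene the regions in a shared window belong to was not tested. Of 24 lncRNA genes in the windows, 7 (29.2%) had Pol II at an end, against 15.1% of all lncRNA genes. Some of the 7 shared their peak with a protein-coding neighbour, as RRS1-DT did with RRS1.

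Genes of the same families were mostly ordinary in this respect. All 32 listed relatives were found, and 13 (40.6%) had Pol II at an end, close to the 39.4% of all protein-coding genes. Their median density was 46.0 for H3K4me1 and 8.59 for Pol II, against 40.3 and 7.01 over all protein-coding genes. Of the 32, 19 lay above that H3K4me1 median. For 29 of the 32 the H3K4me1 density was below that of their relative among the 8. The 8 were chosen for high H3K4me1, so this count follows from the choice and nothing is read from it. The other 3 were tetraspanins of the same group as TSPAN14 (73.4): TSPAN5 had 85.7, TSPAN15 77.6 and TSPAN10 77.0. Among transglutaminases, TGM1 had 78.9 and TGM3 8.45, and F13A1, the coagulation factor XIII A chain gene, had 0. No Pol II was at an end of any of the 7 relatives of TGM2. MICAL3 had 73.0, and MICAL1 42.4.

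Outside the 8 windows, the genes with the highest H3K4me1 density over bases of both lists were MCFD2 (149), PLAU (145) and TM4SF4 (140), ranks 1 to 3 of all protein-coding genes and above each of the 8. PLAU encodes urokinase. Their Pol II densities were 36.4, 41.6 and 38.9, above the 30.02 of ITPRIP, the highest of the 8. Pol II was at an end of PLAU and TM4SF4 but not of MCFD2.

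Chromosome 10 carries 4 of the 8 genes, TSPAN14, PPP1R3C, ITPRIP and PLPP4, in that order along its long arm. Over the segment from the first to the last of their windows (80354310 to 120692065) H3K4me1 covered 39.7 and Pol II 6.83 bases per kb. The rest of chromosome 10 had 30.3 and 4.87, and the other autosomes 27.3 and 4.49. Chromosome 10 ranked second for H3K4me1 after chromosome 17. The median window of the 277 protein-coding genes of the segment had 59.3 H3K4me1 bases per kb, against 40.1 on the rest of the chromosome and 41.2 on the other autosomes. The median fold of H3K4me1 peaks in the segment was 4.73 and 4.70, and their median −log10 q 15.9 and 12.9, against 4.78, 4.90, 13.1 and 11.4 on the other autosomes. This cell line is known to carry extra material of the long arm of chromosome 10. Copy number was not measured here, and its part in the density near these 4 genes was not tested. The other 4 genes, which are the 4 highest of the 8 by the value behind the choice, lie on chromosomes 1, 8, 11 and 20.

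As a check of the labelled cell type, KRT8, KRT18, VIM and COL1A1, genes of epithelial and mesenchymal cells, all had Pol II at an end. Of 11 genes of retinal pigment epithelium, 4 had it (PMEL, RDH5, RDH10 and STRA6) and 7 had H3K4me1. Over all protein-coding genes the shares were 39.4% for Pol II and 63.9% for H3K4me1. The counts among the 11 genes are near these shares and do not tell the cell type. RPE65, BEST1, TYR and LRAT, defining genes of the mature tissue, had neither target at an end in both lists.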

How the data were processed

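From 10 CUT&Tag libraries of hTERT-RPE1 cells the authors made 4 deposited peak lists with 10 columns. The submitters' processing notes name BWA, SICER, deepTools and hg38 with no role or version. Which of these called the peaks, with what threshold and control, was not given in the sources used here. Column 5 holds a deposited score, which was not used. The deposited ratio (column 7) was read as fold enrichment over background, and folds in the text are those of the authors. The deposited −log10 q (column 9) was used to describe peaks and to set a stricter threshold. The summit position given by the authors is in column 10. No read counts were used, so depth is unknown.

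Peaks on chromosomes 1 to 22 and X were joined to a RefSeq gene table of GRCh38.p14 without strand. Overlap meant 1 bp or more. The strand of 6 genes came from the RefSeq promoter table. Scripts ran in Python 3.11.15. Intervals used scipy 1.17.1, tables pandas 2.3.3, base counts numpy 2.4.6, and figures were drawn by matplotlib 3.10.9. Base counts were tested on simulated data in 4000 windows, with 0 mismatches. No statistical test across conditions was made: the members and lists were chosen with earlier results of these data known, and 2 lists a target share 1 cell line. Named were the 8 genes, their protein-coding neighbours, listed family relatives (the extremes and exceptions by density), the strongest and widest regions, the longest gaps, and the 3 genes of highest H3K4me1 density outside the windows. Other regions at the genes, lncRNA neighbours and 1 microRNA gene were named after their values were seen. Alternatives were each list alone, either list, above-median peaks, windows of 50 and 200 kb, 10% cover for overlap and 2 kb for gene ends.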

Additional observations from a re-analysis of the deposited data

How the results depend on the processing

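No paired analysis was possible because no result came from a test and each target has its own lists. The median H3K4me1 density near the 8 genes, 114.5 bases per kb, ranged from 128 to 136 with a single list, and was 82.0 with above-median peaks, 130.1 and 73.7 with 50 and 200 kb, and 150.2 with either list. It was 1.84 (200 kb) to 3.39 (above-median peaks) times the median of all protein-coding genes. The Pol II density of 20.6 ranged from 27.0 to 37.7 with a single list, and was 15.8 with above-median peaks, 31.9 and 14.1 with 50 and 200 kb, and 44.2 with either list, or 1.99 (200 kb) to 4.63 (50 kb) times that median. The share of H3K4me1 regions with Pol II, 37.1%, ranged from 42.0% to 43.5% with a single list, and was 38.8% with above-median peaks, 38.5% and 34.5% with 50 and 200 kb, and 48.0% with either list. The median gap of 4972 bp ranged from 4552 to 4937 bp with a single list, and was 6952 bp with above-median peaks, 4361 and 5425 bp with 50 and 200 kb, and 4429 bp with either list. Protein-coding neighbours with Pol II, 10 of 18, were 11 to 13 with a single list, 7 of 18 with above-median peaks, 7 of 12 with 50 kb, 17 of 35 with 200 kb, 14 of 18 with either list and 11 of 18 within 2 kb of an end. Over all protein-coding genes the share with Pol II at an end moved too. It was 43.7% to 47.4% with a single list and 27.0% with above-median peaks. With either list it was 51.2%, within 2 kb of an end 44.6%, and with 50 and 200 kb it stayed at 39.4%. Each shift follows from counting fewer or more peaks or another window. Without read counts, whether a missing peak reflects depth is not known.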
